A study of Homo sapiens with 33 samples.

Results

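The 9 forkhead genes FOXC1, FOXC2, FOXF1, FOXF2, FOXD1, FOXL2, FOXE3, FOXJ1 and FOXQ1 were examined in human embryonic stem cells (ESCs) with and without EZH2. They were selected by name, and all 9 were found once among the 35805 genes of the RNA-seq table, as well as in 10 of the 153958 start-site windows of the ChIP-seq table (2 windows for FOXD1 and 1 for each of the others). RNA-seq covered 4 genotypes of the H9 ESC line with 3 libraries each, all from live cells sorted for the surface marker SSEA4 and grown on mouse feeder cells. The genotypes were unmodified EZH2+/+ ESCs, EZH2-/+ ESCs with a CRISPR/Cas9 mutation in 1 allele, EZH2-/- ESCs with both alleles mutated, and EZH2-/-+EZH2 ESCs in which doxycycline (DOX) turned on an EZH2 transgene. The EZH2-/- cells were made by a second round of targeting in an EZH2-/+ line that already held the transgene, and the mutant cells are clonal lines, so that a difference from EZH2+/+ ESCs cannot be told apart from a difference between clones. The EZH2-/- and EZH2-/-+EZH2 cells go back to the same targeted line, and differ by DOX as well as by EZH2 expression from the transgene. In ChIP-seq, 4 histone marks (H3K27me3, H3K27ac, H3K4me1 and H3K4me3) and input were profiled for each of the 4 genotypes, and EZH2 binding for EZH2+/+ ESCs alone.

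Forkhead (FOX) proteins are transcription factors that bind DNA through a winged-helix domain, and many of them set up tissues of the embryo. EZH2 is the enzyme of Polycomb repressive complex 2 that trimethylates lysine 27 of histone H3 (H3K27me3), a mark found at silent developmental genes. H3K4me3 marks promoters that are active or poised, H3K27ac marks active promoters and enhancers, and H3K4me1 is spread over enhancers and the flanks of promoters. Among the 9 genes, FOXC1 and FOXC2 act in paraxial mesoderm, blood and lymph vessels, FOXF1 and FOXF2 in the mesenchyme of gut and lung downstream of Hedgehog signals, FOXD1 in the stroma of the developing kidney, FOXL2 in ovarian granulosa cells, FOXE3 in the lens, FOXJ1 in cells with motile cilia, and FOXQ1 in several epithelia.

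RefSeq promoter sequence on GRCh38.p14, the assembly the files also use, was given for 5 of the 9 genes (FOXC1, FOXF2, FOXQ1, FOXL2 and FOXD1). Each sequence is 300 bases long, lies inside the ChIP-seq window of its gene and is written 5′ to 3′ on the strand of the gene, with CpG dinucleotides in capitals. The 3 promoters of the chromosome 6 genes are shown because these genes lie near each other, and that of FOXD1 because it holds the fewest CpG of the 5. FOXC1 is chr6:1609665-1609964, FOXF2 chr6:1389326-1389625 and FOXQ1 chr6:1311848-1312147 on the plus strand, and FOXD1 chr5:73448728-73449027 on the minus strand.
FOXC1: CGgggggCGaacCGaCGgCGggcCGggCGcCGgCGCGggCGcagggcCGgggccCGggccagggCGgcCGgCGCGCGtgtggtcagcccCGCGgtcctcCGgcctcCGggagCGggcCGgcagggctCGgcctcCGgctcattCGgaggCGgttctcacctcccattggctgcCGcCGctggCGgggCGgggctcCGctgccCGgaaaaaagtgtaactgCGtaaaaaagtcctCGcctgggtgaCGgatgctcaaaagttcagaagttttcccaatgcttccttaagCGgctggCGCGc
FOXF2: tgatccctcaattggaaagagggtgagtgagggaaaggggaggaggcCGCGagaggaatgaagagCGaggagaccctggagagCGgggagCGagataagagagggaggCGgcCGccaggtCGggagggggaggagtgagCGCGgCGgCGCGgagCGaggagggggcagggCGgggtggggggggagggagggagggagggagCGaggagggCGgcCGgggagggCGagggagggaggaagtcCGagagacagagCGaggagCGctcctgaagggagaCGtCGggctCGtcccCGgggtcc
FOXQ1: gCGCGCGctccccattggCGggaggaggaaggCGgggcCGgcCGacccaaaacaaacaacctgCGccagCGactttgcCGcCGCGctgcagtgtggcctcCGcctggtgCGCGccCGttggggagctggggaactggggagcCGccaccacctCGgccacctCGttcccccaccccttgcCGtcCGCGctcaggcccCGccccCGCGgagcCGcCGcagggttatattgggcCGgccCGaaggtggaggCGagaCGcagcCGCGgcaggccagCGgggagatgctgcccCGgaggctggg
FOXD1: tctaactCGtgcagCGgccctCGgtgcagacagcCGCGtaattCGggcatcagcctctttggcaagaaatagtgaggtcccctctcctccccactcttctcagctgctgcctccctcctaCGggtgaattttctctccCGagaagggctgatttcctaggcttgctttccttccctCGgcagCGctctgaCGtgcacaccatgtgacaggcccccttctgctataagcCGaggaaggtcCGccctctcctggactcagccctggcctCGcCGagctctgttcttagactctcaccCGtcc

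The promoter of FOXC1 held 40 CpG, that of FOXQ1 35, FOXL2 28, FOXF2 26 and FOXD1 16, against a median of 14 over all 35116 promoters of that length. As many CpG as in FOXC1 were found in 7.61% of all promoters, and as many as in FOXD1 in 47.5%. On either strand, CCAAT was found in FOXC1, FOXF2 and FOXQ1 and in 34.6% of all promoters. TATAAA, which 11.5% of all promoters held, the forkhead core TGTTTAC (3.42%) and the GLI sequence TGGGTGGTC (0.236%) were in none of the 5. A motif that is absent from these 300 bases says nothing of sequence elsewhere.

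The RNA libraries held 16587860 to 36589089 reads on genes, and a floor of 3 reads was worth 0.0528 to 0.120 RPM (reads per 1000000 reads of the library). The mean level of EZH2 RNA was 63.8 ± 4.56 RPM (SD, n = 3) for EZH2+/+ and 51.2 ± 4.95 RPM for EZH2-/+ ESCs. It was 9.95 ± 1.44 RPM for EZH2-/- ESCs, and 304 ± 70.6 RPM once the transgene was on, with endogenous and transgene reads counted together. All 10 pluripotency markers were tested, and their summed RNA ranged over 2461 to 3088 RPM in EZH2+/+ and over 3691 to 4170.3 RPM in EZH2-/- libraries. Endoderm and mesoderm markers were higher in sum in the EZH2-/- libraries than in the other genotypes, apart from 1 EZH2-/+ library for endoderm. The sum of 8 endoderm markers ranged over 189 to 515 RPM without EZH2, over 28.7 to 66.3 RPM in EZH2+/+ libraries and over 32.6 to 101 RPM with the transgene on. The sum of 7 mesoderm markers ranged over 179.8 to 246, 53.5 to 84.1 and 78.3 to 179 RPM in the same order. Sums of 10 mesenchyme or fibroblast markers overlapped among the 3 genotypes, at 309 to 616, 303 to 378 and 237 to 317 RPM, as did those of 6 neuroectoderm markers, at 52.7 to 73.0, 46.7 to 119 and 61.3 to 78.1 RPM. For 6 trophectoderm or amnion markers the sums were 4.61 to 7.73, 4.94 to 8.30 and 2.79 to 3.92 RPM, the last of which did not overlap the others. Single markers moved within these sums, and by the limma test used below for the FOX genes, 0 of 10 pluripotency, 2 of 8 endoderm, 1 of 7 mesoderm, 4 of 9 mesenchyme, 1 of 5 neuroectoderm and 1 of 3 trophectoderm markers tested were higher, and 0 of any list lower, in EZH2-/- relative to EZH2-/-+EZH2 ESCs. Relative to EZH2+/+ ESCs 6 pluripotency markers were higher and 1 lower, 5 endoderm and 3 mesoderm markers were higher, 5 mesenchyme markers were higher and 1 lower, 3 neuroectoderm markers were lower and 1 trophectoderm marker was higher. Of all genes tested, 2.63% were called higher against EZH2-/-+EZH2 ESCs, and 12.6% higher and 18.8% lower against EZH2+/+ ESCs. The collagen gene COL3A1, a mesenchyme marker picked after its values were seen, was at 53.8 ± 52.3 RPM (SD, n = 3) without EZH2, 2.10 ± 1.90 RPM in EZH2+/+ ESCs and 0.226 ± 0.324 RPM with the transgene on. Of the other collagen genes in the list, COL6A3 was also highest without EZH2, at means of 32.8, 1.89 and 2.19 RPM in the same order. COL1A1 and COL1A2 were highest in EZH2+/+ ESCs, at 65.2, 88.3 and 39.7 RPM and at 89.5, 182 and 86.0 RPM. At 0 in every library was 1 of the 6 trophectoderm or amnion markers, and none of the other lists had such a gene. Their part in the FOX results was not tested, and in these bulk libraries more cells with a transcript and more of it per cell cannot be told apart.

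In EZH2+/+ ESCs only FOXJ1 stood above the others. Per kilobase of exon (the union of GENCODE exons), FOXJ1 was at 1.83 ± 0.761 RPM per kb (SD, n = 3) in EZH2+/+ ESCs. FOXD1 followed at 0.285 ± 0.0809 RPM per kb, with no FOXD1 library reaching a FOXJ1 library. The other 7 genes lay at or below 0.123 ± 0.0858 RPM per kb, the level of FOXE3, and each overlapped its neighbour in the order. In EZH2-/- ESCs the order was FOXQ1 at 2.79 ± 2.16, FOXD1 at 1.99 ± 1.13, FOXJ1 at 1.38 ± 0.149, FOXF2 at 1.07 ± 0.663, FOXC2 at 0.903 ± 0.415 and FOXC1 at 0.709 ± 0.172 RPM per kb, with the libraries of each overlapping those of the next. FOXL2 at 0.433 ± 0.0352 RPM per kb lay below FOXC1 without overlap. FOXF1 at 0.147 ± 0.106 RPM per kb lay below FOXL2 without overlap, and overlapped FOXE3 at 0.0681 ± 0.0156 RPM per kb.

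**Figure D1:**
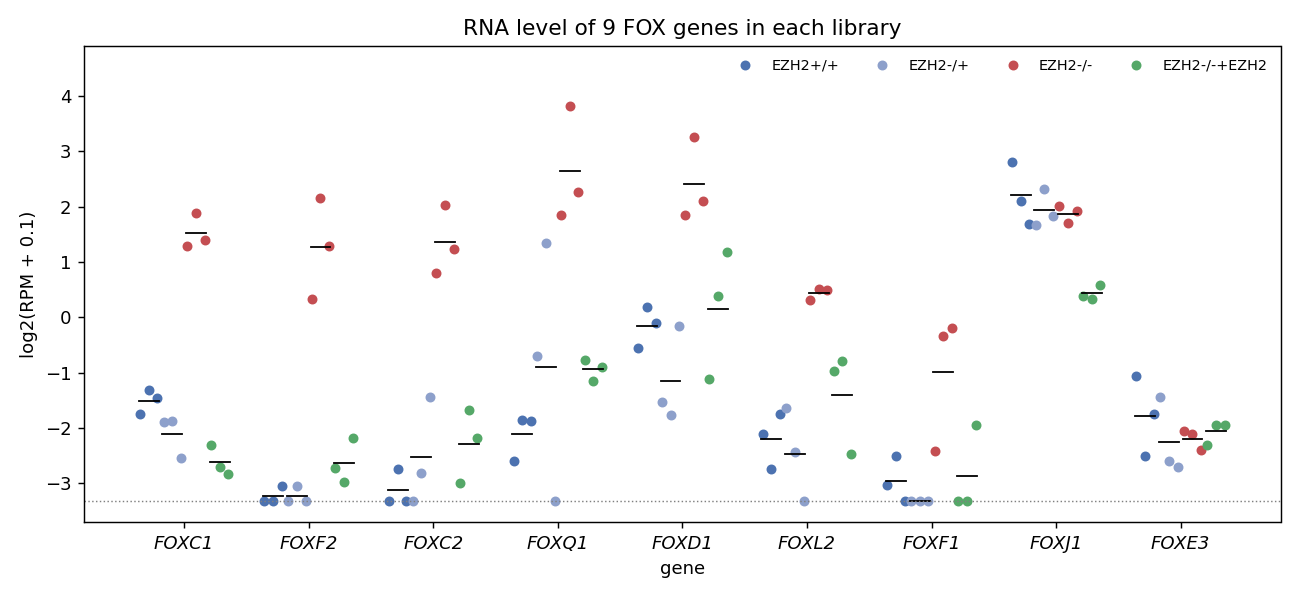
RNA level of the 9 genes on the scale log2(RPM + 0.1), with 1 point per library, 3 libraries for each genotype and a black bar at the mean of the 3 on that scale. The dotted line is the value of a gene without a read. The EZH2-/- points of FOXC1, FOXF2, FOXC2, FOXQ1, FOXD1 and FOXL2 lie above all points of the other genotypes, while FOXE3 shows no such separation and FOXJ1 is lowest in EZH2-/-+EZH2 ESCs.

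The comparison of EZH2-/- with EZH2-/-+EZH2 ESCs asks what differs when the same clonal cells do or do not receive EZH2 from the transgene. FOXC1, FOXF2, FOXC2, FOXQ1 and FOXJ1 were higher in EZH2-/- ESCs, none of the 9 was lower, and FOXD1, FOXL2, FOXF1 and FOXE3 did not pass the test. The test was limma on log2(RPM + 0.1) over all 12 libraries, with Benjamini-Hochberg adjustment over the 20608 genes tested and a threshold of 0.05. All 9 genes passed the filter on low values (a mean over the 12 libraries of 0.1 RPM or more), to which the EZH2-/- libraries contribute. FOXF1, FOXF2 and FOXC2 passed it only through their EZH2-/- level, as their mean over the other libraries lay below 0.1 RPM. The calls of FOXF2 and FOXC2 are thus not free of the filter. Against the 5 of 9 called higher, 2.63% of all genes tested were called higher in this comparison. The 3 EZH2-/- libraries lay above all 3 EZH2-/-+EZH2 libraries for 7 of the 9 genes, and for 13.5% of all genes tested. The median log2 fold change was 2.25 over the 9 genes and 0.02 over all genes tested. With library number added as a block, since equally numbered libraries deviated together, 8 of the 9 were called higher, the exception being FOXE3, beside 6.19% of all genes tested.

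FOXC1 lies on chromosome 6 from 1609972 to 1613897 (plus strand). It acts in eye, vessels and somites, and its level was 2.34, 3.60 and 2.52 RPM in the 3 EZH2-/- libraries and 0.103, 0.0536 and 0.0400 RPM in the 3 EZH2-/-+EZH2 libraries. All EZH2-/- libraries were high, and all EZH2-/-+EZH2 libraries were near the floor. The log2 fold change was 4.14 (SE 0.31, limma adjusted p = 2.1e-05). FOXC2, its close relative (chromosome 16 from 86567251 to 86569728, plus strand), was at 1.64, 3.96 and 2.26 RPM in the EZH2-/- libraries against 0.0257, 0.214 and 0.120 RPM in those with EZH2, again without overlap. The log2 fold change of FOXC2 was 3.63 (SE 0.51, limma adjusted p = 0.0034).

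FOXF2, which acts in mesenchyme beside gut epithelium (chromosome 6 from 1389834 to 1395597, plus strand), was at 1.16, 4.37 and 2.35 RPM in EZH2-/- libraries. In EZH2-/-+EZH2 libraries FOXF2 was at 0.0514, 0.0268 and 0.120 RPM, which is 2, 1 and 3 reads. The groups did not overlap, and the log2 fold change was 3.89 (SE 0.41, limma adjusted p = 7.3e-04). FOXF1, needed for lung vessels and visceral mesoderm (chromosome 16 from 86510527 to 86515418, plus strand), was at 0.0880, 0.695 and 0.772 RPM in the EZH2-/- libraries against 0, 0 and 0.160 RPM in the EZH2-/-+EZH2 libraries. The first EZH2-/- library held 5 reads of FOXF1 and the third EZH2-/-+EZH2 library 4, so that the groups overlapped. With 68 reads in all against 4, the ratio of reads scaled to library size was 12 (95% counting interval 4.46 to 45.2). The log2 fold change of FOXF1 was 1.88 (SE 0.56, limma adjusted p = 0.095, or 0.042 with the block), and without the first EZH2-/- library the adjusted p was 0.0086.

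FOXQ1 (chromosome 6 from 1312473 to 1314187, plus strand) reached the highest RPM of the 9 in a single library. It was at 3.50, 14.0 and 4.72 RPM in the EZH2-/- libraries against 0.489, 0.348 and 0.440 RPM in the EZH2-/-+EZH2 libraries, without overlap, and the second EZH2-/- library stood well above the others. The log2 fold change of FOXQ1 was 3.58 (SE 0.87, limma adjusted p = 0.045). The call was lost without any 1 of EZH2+/+ libraries 1, 2 and 3, EZH2-/+ library 1, EZH2-/- libraries 2 and 3 and EZH2-/-+EZH2 libraries 1, 2 and 3, with limma adjusted p between 0.059 and 0.23 and a log2 fold change between 3.00 and 3.77. FOXD1, a marker of kidney stromal progenitors (chromosome 5 from 73444827 to 73448362, minus strand), was at 3.52, 9.40 and 4.19 RPM in the EZH2-/- libraries against 0.360, 1.21 and 2.16 RPM in the EZH2-/-+EZH2 libraries. Again the second EZH2-/- library was the highest and the groups did not overlap, but the log2 fold change of 2.25 (SE 0.58) had a limma adjusted p of 0.057, or 0.014 with the library number as a block. FOXD1 also passed without EZH2-/+ library 3 (limma adjusted p = 0.029) or without EZH2-/-+EZH2 library 3 (limma adjusted p = 0.044), with log2(RPM + 1) (limma adjusted p = 0.024) and after rescaling by the upper quartile (limma adjusted p = 0.047).

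FOXL2 (chromosome 3 from 138944224 to 138947140, minus strand) had the most even EZH2-/- libraries of the 9 genes, at 1.14, 1.33 and 1.31 RPM, against 0.411, 0.482 and 0.0799 RPM in EZH2-/-+EZH2 libraries. Its log2 fold change was 1.85 (SE 0.50, limma adjusted p = 0.067, or 0.033 with the block, 0.033 without EZH2-/+ library 3, 0.0053 with log2(RPM + 1) and 0.047 after rescaling by the upper quartile). FOXJ1, the regulator of motile ciliogenesis (chromosome 17 from 76136333 to 76141299, minus strand), differed in another way. It was at 3.91, 3.15 and 3.68 RPM in the EZH2-/- libraries against 1.21, 1.15 and 1.40 RPM in the EZH2-/-+EZH2 libraries, with a log2 fold change of 1.44 (SE 0.28, limma adjusted p = 0.018). The EZH2-/- level of FOXJ1 lay within the EZH2+/+ range, and the EZH2-/-+EZH2 libraries were the low ones. Without EZH2-/- library 2 or 3, or EZH2-/-+EZH2 library 1 or 2, the adjusted p of FOXJ1 lay between 0.057 and 0.074. FOXE3, a lens gene (chromosome 1 from 47416072 to 47418052, plus strand), was at 0.141, 0.131 and 0.0891 RPM in the EZH2-/- libraries against 0.103, 0.161 and 0.160 RPM in the EZH2-/-+EZH2 libraries, a difference smaller than the spread between libraries (log2 fold change -0.13, SE 0.42, limma adjusted p = 0.91).

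Library 2 of the EZH2-/- ESCs was the highest of its group for 6 of the 9 genes (FOXC1, FOXC2, FOXF2, FOXD1, FOXL2 and FOXQ1). The share of all genes for which library 2 was the highest was not computed. The same library also had the highest sums of its group for endoderm (515 RPM), mesoderm (246 RPM) and mesenchyme or fibroblast markers (616 RPM). The part of these markers in the FOX results was not tested. Without this library 3 of the 9 genes (FOXC1, FOXC2 and FOXF2) were called higher against EZH2-/-+EZH2 ESCs, as they were without EZH2-/- library 3 or EZH2-/-+EZH2 library 1 or 2, and 6 of 9 were called higher against EZH2+/+ ESCs.

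**Figure D2:**
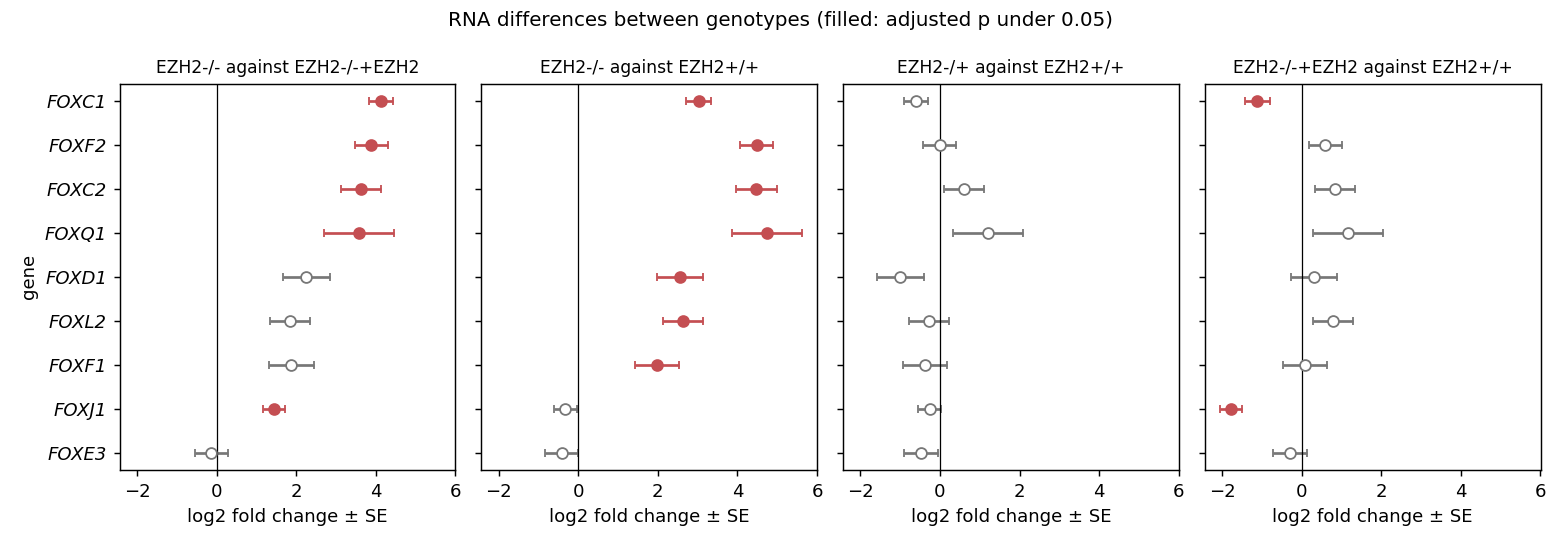
Log2 fold change of each gene, with its standard error, in 4 comparisons between genotypes (limma on log2(RPM + 0.1), 3 libraries per genotype). Filled red points have an adjusted p under 0.05: 5 genes in the first panel, 7 in the second, 0 in the third and 2, both lower, in the fourth.

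Relative to unmodified EZH2+/+ ESCs, 7 of the 9 genes were higher in EZH2-/- ESCs, and FOXJ1 and FOXE3 did not pass the test. This comparison uses the same 3 EZH2-/- libraries as the one above, so that the calls of one do not bear out those of the other. Among the 7, FOXC2, FOXF1 and FOXF2 again passed the filter on low values only through those libraries. Of all genes tested, 12.6% were called higher in this comparison, and the 3 and 3 libraries did not overlap, with EZH2-/- above, for 7 of the 9 genes and for 20.6% of all genes tested. The median log2 fold change was 2.64 over the 9 genes and -0.13 over all genes tested. RPM were not rescaled: 2593 genes were called higher and 3870 lower, and after rescaling by the median ratio 3381 higher and 2816 lower, with 7 of the 9 genes higher either way.

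In the 3 EZH2+/+ libraries FOXF2 was at 0, 0 and 0.0219 RPM, that is 1 read in all, against 378 reads in the 3 EZH2-/- libraries. The ratio of reads scaled to library size was 342 (95% counting interval 61.1 to 13557), and the log2 fold change 4.49 (SE 0.41, limma adjusted p = 2.6e-05). FOXC2 had 0, 2 and 0 reads in the EZH2+/+ libraries, and the read ratio was 172 (95% counting interval 47.3 to 1426) with a log2 fold change of 4.48 (SE 0.51, limma adjusted p = 9.2e-05). The fitted fold changes of such low genes depend on the pseudocount, and the intervals cover counting error alone.

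FOXC1 was detected in every EZH2+/+ library, at 0.200, 0.304 and 0.262 RPM, and its log2 fold change was 3.03 (SE 0.31, limma adjusted p = 4.9e-05). FOXQ1 was at 0.0666, 0.178 and 0.175 RPM in EZH2+/+ libraries, with a log2 fold change of 4.75 (SE 0.87, limma adjusted p = 0.0017). FOXF1 had 1, 3 and 0 reads in EZH2+/+ libraries and a log2 fold change of 1.97 (SE 0.56, limma adjusted p = 0.018). This call of FOXF1 was lost without EZH2+/+ library 1 or 3 or EZH2-/- library 2 or 3, with limma adjusted p between 0.051 and 0.082. It was also lost when the filter on low values was left out (limma adjusted p = 0.060).

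FOXD1 already stood at 0.577, 1.04 and 0.830 RPM in EZH2+/+ libraries, and it was higher in EZH2-/- ESCs by a log2 fold change of 2.56 (SE 0.58, limma adjusted p = 0.0059). FOXL2 was at 0.133, 0.0507 and 0.197 RPM in EZH2+/+ libraries, with a log2 fold change of 2.64 (SE 0.50, limma adjusted p = 0.0021). For FOXJ1, the EZH2+/+ libraries were at 6.93, 4.21 and 3.10 RPM and overlapped the EZH2-/- libraries (log2 fold change -0.33, SE 0.28, limma adjusted p = 0.41). FOXE3, at 0.377, 0.0761 and 0.197 RPM in EZH2+/+ libraries, overlapped as well (log2 fold change -0.41, SE 0.42, limma adjusted p = 0.48).

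Losing 1 EZH2 allele was followed by no called change in the 9 genes. Of the 9, limma called 0 in EZH2-/+ relative to EZH2+/+ ESCs, 0 had an unadjusted p under 0.05 and limma voom on the recovered reads also called 0, where 1.15% of all genes tested were called in either direction. The libraries of EZH2-/+ ESCs were uneven for FOXQ1, at 0.514, 2.44 and 0 RPM. The second of them had 487 RPM of endoderm markers, against 18.1 and 88.4 RPM in the other 2 EZH2-/+ libraries, and the part of these markers in the FOXQ1 level was not tested. FOXF1 had no read in any of the 3 EZH2-/+ libraries and FOXF2 had 0, 1 and 0 reads, at or under the floor of 3 reads. FOXC2 had 0, 2 and 15 reads, most of them in 1 library. For FOXD1, FOXL2, FOXE3 and FOXJ1 the EZH2-/+ and EZH2+/+ libraries overlapped. FOXC1 was at 0.171, 0.173 and 0.0712 RPM in EZH2-/+ libraries, each below each EZH2+/+ library, but the log2 fold change of -0.60 had a limma adjusted p of 0.54.

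Between EZH2-/-+EZH2 and EZH2+/+ ESCs, FOXJ1 and FOXC1 were lower in the cells with the transgene, and 0 of the 9 were higher. The background was 6.9% of all genes called lower and 3.4% called higher (1422 and 701 genes as deposited, or 872 and 1031 after rescaling by the median ratio, with a median log2 fold change of -0.15 over all genes). FOXJ1 was at 1.25 ± 0.129 RPM (SD, n = 3) in EZH2-/-+EZH2 and 4.75 ± 1.97 RPM in EZH2+/+ ESCs, with each EZH2-/-+EZH2 library below each EZH2+/+ library. Its log2 fold change was -1.77 (SE 0.28, limma adjusted p = 0.0027). FOXC1 had a log2 fold change of -1.11 (SE 0.31, limma adjusted p = 0.038), from 7 reads in the EZH2-/-+EZH2 and 33 in the EZH2+/+ libraries. The call of FOXC1 was lost after rescaling by the median ratio (log2 fold change -1.03, limma adjusted p = 0.057) and without any 1 of the 3 EZH2+/+ or the 3 EZH2-/-+EZH2 libraries (limma adjusted p 0.054 to 0.14). FOXQ1 stood at 0.489, 0.348 and 0.440 RPM in the 3 libraries with the transgene, each above each EZH2+/+ library, with a log2 fold change of 1.16 (SE 0.87, limma adjusted p = 0.44). FOXF2 had 6 reads in the EZH2-/-+EZH2 and 1 in the EZH2+/+ libraries, with a log2 fold change of 0.60 (SE 0.41, limma adjusted p = 0.40).

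At the chromatin level, H3K27me3 covered the start sites of all 9 genes in EZH2+/+ ESCs and fell to between 0.753 and 2.74 times the input level in EZH2-/- ESCs. Each window reaches 2.5 kb either side of a start site, and its value is a single mean per genotype, so that there is no replicate error and no test between genotypes. The steps of the low values place it at a mean of 2 libraries, and the reads per library and the counting intervals given here rest on that. In EZH2+/+ ESCs the 9 windows held 25.1 to 45.4 RPM of H3K27me3, against a median of 1.96 RPM over the windows of all 35683 gene names. Their percentiles among these names lay between 97.3 and 99.6. FOXF1 had the most, FOXF2 the next, and FOXD1 and FOXE3 the least. Taking a log2 change of -1 or less as the limit, 9 of the 9 genes and 48% of all gene names lost H3K27me3 from EZH2+/+ to EZH2-/- ESCs. Each gene name was taken at its window with the most H3K27me3 in EZH2+/+ ESCs. Choosing windows by their starting level favours a loss in these shares. The log2 changes ran from -5.07 at FOXQ1 to -3.94 at FOXF1, with a median of -4.63 that compares with -3.67 over the 6235 promoters marked by H3K27me3 in EZH2+/+ ESCs (above 0.1 log2 RPM per kb, with input below it). With the transgene on, the 9 windows held 23.3 to 39.8 RPM, at log2 changes of -0.56 to -0.05 from EZH2+/+ ESCs, beside a median of -0.31 over the promoters marked by H3K27me3.

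The H3K27me3 remaining in EZH2-/- ESCs was unequal among the 9 genes. FOXF1 kept 2.86 RPM (about 40 reads per library), which was 2.74 times its input. FOXF2 kept 2.05 RPM, or 1.87 times input, FOXE3 1.33 times and FOXD1 1.17 times input. The other 5 windows lay below input, at 0.753 (FOXQ1) to 0.939 (FOXC1) times. In EZH2+/+ ESCs the same ratio was 17.6 at FOXD1 to 46.4 at FOXF1, and EZH2-/+ ESCs had 30.1 to 51.6 RPM of H3K27me3. The second FOXD1 window, not used for the values above, went from 24.1 RPM in EZH2+/+ to 0.960 RPM in EZH2-/- ESCs.

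EZH2 occupancy, known only in EZH2+/+ ESCs and from 1 library, was highest at FOXF1 as well. FOXF1 had 10.9 RPM, FOXC1 8.49, FOXF2 7.93, FOXL2 7.54, FOXC2 6.77, FOXD1 5.52, FOXQ1 4.76, FOXE3 4.01 and FOXJ1 3.29 RPM. The median over all gene names was 0.290 RPM, and over promoters with H3K27me3 in EZH2+/+ ESCs 0.837 RPM. FOXE3 and FOXJ1 had the lowest EZH2 levels of the 9, although the lowest percentile of the 9 among all names was 98.3. Their RNA was not called higher in EZH2-/- than in EZH2+/+ ESCs. Against EZH2-/-+EZH2 ESCs, however, FOXJ1 was called higher, and FOXF1, with the most EZH2, did not pass the test. A link between EZH2 level and RNA change was not tested.

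**Figure D3:**
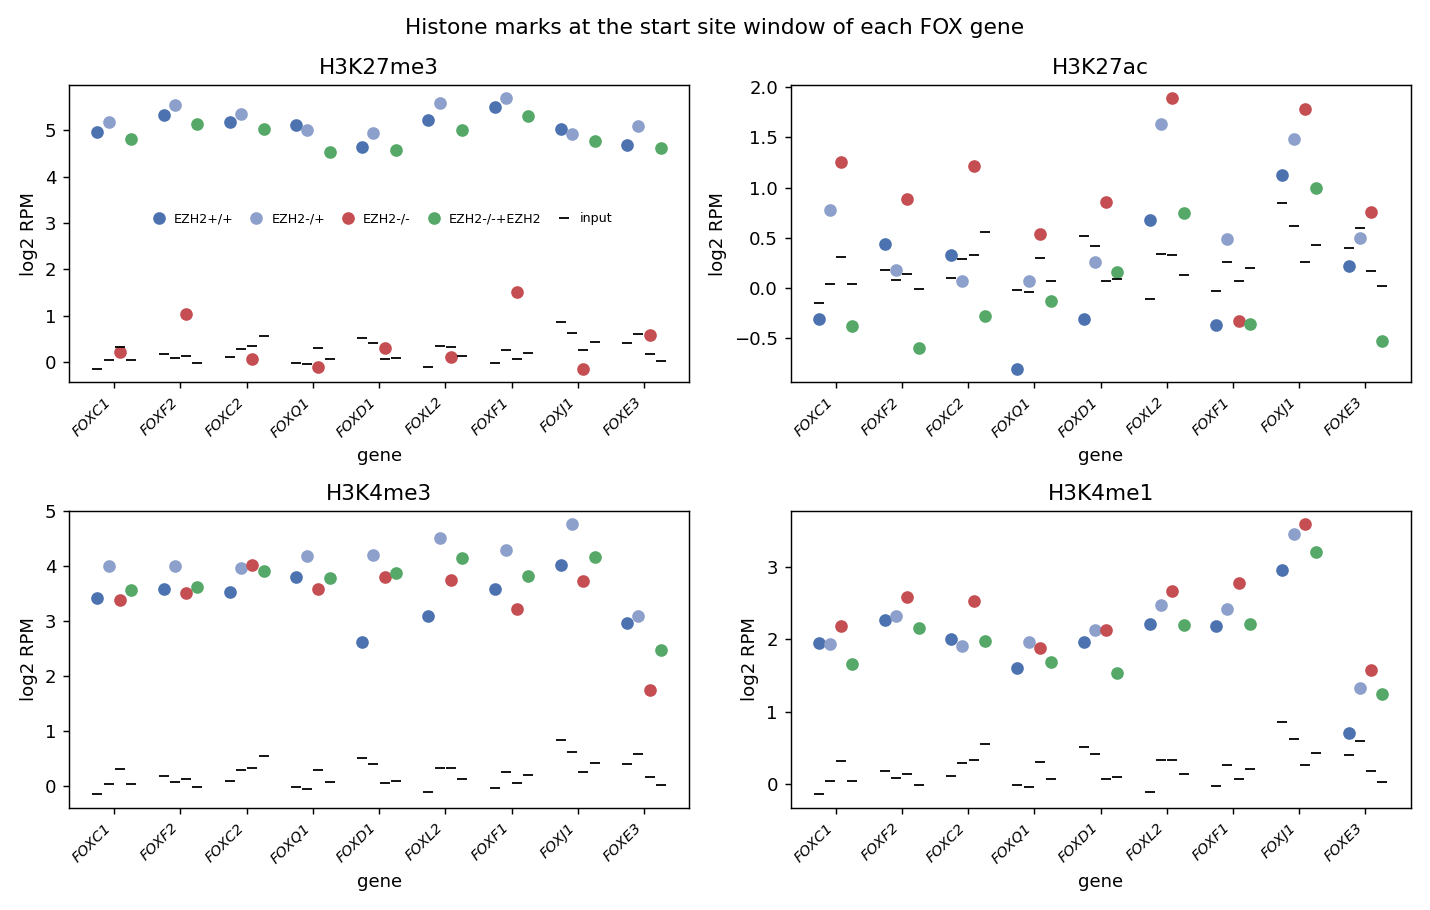
Level of 4 histone marks at the start-site window of each gene in log2 RPM, 1 point per genotype (a single mean over libraries, no error available), with the input of each genotype as a black dash. H3K27me3 lies at 25.1 to 45.4 RPM before the log in EZH2+/+ and at 0.904 to 2.86 RPM in EZH2-/- ESCs, and the H3K27ac point of EZH2-/- ESCs is the highest of the 4 genotypes at 8 of 9 genes, FOXF1 being the exception.

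H3K27ac was higher in EZH2-/- than in EZH2+/+ ESCs at all 9 genes in value. A log2 change of 1 or above was reached by 4 of the 9 (FOXC1, FOXQ1, FOXL2 and FOXD1), by 9.18% of all gene names and by 23.2% of the promoters with H3K27me3 in EZH2+/+ ESCs. The median change was 0.84 over the 9 genes and 0.66 over those promoters. The H3K27ac of FOXC1 went from 0.810 to 2.39 RPM, a log2 change of 1.45 (95% counting interval 0.74 to 2.39). FOXL2 went from 1.59 to 3.70 RPM, a log2 change of 1.17 (interval 0.59 to 1.80), and held the highest H3K27ac level of the 9 in EZH2-/- ESCs. FOXF1 stayed apart. Its H3K27ac was 0.775 RPM with both alleles intact, 0.795 RPM without EZH2 and 0.777 RPM with the transgene on, all below the input of the same cells, and 1.40 RPM in EZH2-/+ ESCs. The counting interval excluded 0 for 6 of 9 genes against EZH2+/+ ESCs and for 6 of 9 against EZH2-/-+EZH2 ESCs. These 2 comparisons share the EZH2-/- values. How many of all gene names had such an interval was not computed. The median H3K27ac change over all names was 0.31 against EZH2+/+ and 0.16 against EZH2-/-+EZH2 ESCs. Over promoters with H3K27me3 it was 0.66 and 0.67. The levels rest on 7 to 32 reads per library in EZH2-/- and EZH2+/+ ESCs. They move with the scale: with log2(RPM + 1) 0 of 9 changes reached 1, with changes centred on promoters without H3K27me3 1 of 9, and after subtraction of input 8 of 9. In EZH2+/+ ESCs 5 of the 9 lay below input and were set to 0 there, so that the size of their change after subtraction is set by the pseudocount.

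H3K4me1 was also higher in EZH2-/- ESCs at all 9 genes in value, with log2 changes of 0.17 to 0.84 from EZH2+/+ ESCs, where the median over promoters with H3K27me3 was 0.36. FOXJ1 had by far the most H3K4me1 in every genotype, going from 7.80 RPM with EZH2 to 12.1 RPM without, and FOXE3 the least, going from 1.63 to 2.99 RPM. H3K4me3 was present at all 9 genes in all genotypes. Against EZH2-/-+EZH2 ESCs it was lower in EZH2-/- ESCs at 8 of 9 genes in value, with log2 changes of -0.71 at FOXE3 to 0.12 at FOXC2. The counting interval excluded 0 at 4 of these 8, a count without a share over all gene names beside it. The median H3K4me3 change in this comparison was 0.046 over all names and -0.097 over promoters with H3K27me3. FOXE3 was the lowest of the 9 in every genotype but EZH2+/+, where the FOXD1 window used was lower, though the second FOXD1 window was not. The H3K4me3 of FOXE3 was 7.80 RPM with both alleles intact and 3.35 RPM without EZH2. Against EZH2+/+ ESCs the H3K4me3 of EZH2-/- ESCs was lower at FOXE3, with a log2 change of -1.19 (95% counting interval -1.75 to -0.67). It was higher at FOXD1, going from 6.16 to 13.9 RPM, a log2 change of 1.16 (interval 0.71 to 1.68). In the second FOXD1 window, not used for the other values, H3K4me3 went from 8.64 to 12.3 RPM. H3K4me3 was also higher at FOXL2 (0.65, interval 0.23 to 1.08) and at FOXC2 (0.49, interval 0.13 to 0.85), and the intervals of the other 5 genes included 0. Inferred as a log-scale mean of 2 libraries, the EZH2+/+ H3K4me3 depth was 3.43 M reads, against 10.3 to 17.4 M in the other genotypes. At that depth the EZH2+/+ windows held 21 to 56 reads per library.

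Of the 9 genes, 5 lie in 2 groups of neighbours. FOXQ1, FOXF2 and FOXC1 lie on chromosome 6, with FOXQ1 77.4 kb and FOXC1 220 kb from the start of FOXF2, and FOXF1 and FOXC2 lie 56.7 kb apart on chromosome 16 beside FOXL1. The windows cover start sites and not the stretches between them. Between FOXF1 and FOXC2, the start sites of MTHFSD, a gene transcribed at 9.73 RPM in EZH2+/+ ESCs, had 0.88 to 1.63 RPM of H3K27me3 in EZH2+/+ ESCs, against 45.4 RPM at FOXF1 and 36.3 RPM at FOXC2. Between FOXQ1 and FOXF2 the single window, 4.77 kb before the start of FOXF2, had 43.9 RPM in EZH2+/+ ESCs. The windows of FENDRR, a non-coding RNA gene next to FOXF1, kept up to 4.39 RPM of H3K27me3 in EZH2-/- ESCs, and FENDRR had no RNA read in any of the 12 libraries. Windows of nearby start sites overlap and share reads.

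Within 100 kb of the 9 genes, 20 other genes were tested and 0 were called by limma in EZH2-/- relative to EZH2-/-+EZH2 ESCs (3 with an unadjusted p under 0.05), or 2 with the block (FOXL1, limma adjusted p = 0.038, and FOXL2NB, limma adjusted p = 0.034). Against EZH2+/+ ESCs 3 of the 20 were higher and 3 lower, near the 12.6% and 18.8% of all genes tested. FOXL1, a mesenchymal FOX gene beside FOXC2, was higher (log2 fold change 1.97, limma adjusted p = 9.5e-04), as was FOXL2NB, 0.094 kb from FOXL2. Counting did not use strand, so that a gene and an antisense gene that overlaps it cannot be told apart. This holds for FOXD1 with FOXD1-AS1, which was the third to be higher, for FOXC2 with FOXC2-AS1, and for FOXJ1 with RNF157-AS1. RNA of RNF157-AS1 itself fell from EZH2+/+ to EZH2-/- ESCs (log2 fold change -1.41, limma adjusted p = 0.0012), at 1.37 RPM against 3.73 RPM.

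Of the 40 other FOX genes in the table, 28 were tested and 1 was called higher in EZH2-/- relative to EZH2-/-+EZH2 ESCs, FOXI2, at 2.09 ± 0.643 against 0.349 ± 0.232 RPM (SD, n = 3, log2 fold change 2.36, limma adjusted p = 0.021). With the block 4 were called higher. Of all genes tested, 2.63% were called higher in this comparison, or 6.19% with the block. The median log2 fold change of the 28 was 0.33, beside 0.02 over all genes tested, and against EZH2+/+ ESCs 8 were higher and 2 lower (10 and 4 with the block). The shares of all genes tested there were 12.6% higher and 18.8% lower without the block.

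Genes of 3 programs around the FOX genes were taken as lists. Their counts stand beside 2.63% of all genes tested called higher against EZH2-/-+EZH2 ESCs, or 6.19% with the block. Against EZH2+/+ ESCs the shares were 12.6% higher and 18.8% lower. Of 20 paraxial and lateral mesoderm genes, 19 were tested and 8 were called higher in EZH2-/- relative to EZH2-/-+EZH2 ESCs and 0 lower (12 and 0 with the block), with a median log2 fold change of 1.78. HAND1, which acts in lateral mesoderm and heart, was at 23.3 ± 18.0 RPM (SD, n = 3) without EZH2 and 0.841 ± 0.933 RPM with the transgene on (log2 fold change 4.41, limma adjusted p = 0.019). HAND2, its relative, was at 2.55 ± 2.12 RPM and MSGN1, of presomitic mesoderm, at 1.35 ± 0.938 RPM in EZH2-/- ESCs, both at 0 in all 3 EZH2-/-+EZH2 libraries (limma adjusted p = 0.018 and 0.0050). HAND2 and MSGN1 passed the filter on low values only through their EZH2-/- level, as did TBX5, TBX18 and TBX20, which were also called. The count of 8, and that against EZH2+/+ ESCs, are thus not free of the filter. Against EZH2+/+ ESCs 9 of the 19 were higher and 3 lower, with a median log2 fold change of 1.15.

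The Hedgehog pathway, which lies upstream of FOXF1 and FOXF2 in gut mesenchyme, gave 1 call among 15 genes tested, the ligand gene IHH (2 higher and 1 lower with the block). IHH was at 2.71 ± 1.42 RPM (SD, n = 3) without EZH2 and 0.134 ± 0.122 RPM with the transgene on (log2 fold change 3.64, limma adjusted p = 0.0034). Against EZH2+/+ ESCs, where 18.8% of all genes tested were lower, 1 of the 15 was higher and 7 were lower, with a median log2 fold change of -0.39 beside -0.13 over all genes. Of 24 genes of the motile cilium program, downstream of or beside FOXJ1, 20 were tested and 1 was called higher (2 with the block), SPAG6, which encodes an axoneme protein (log2 fold change 2.21, limma adjusted p = 0.011). Relative to EZH2+/+ ESCs 2 were higher and 9 lower, with a median of -0.96. In EZH2-/-+EZH2 relative to EZH2+/+ ESCs 6 of the 20 were called lower and 0 higher, beside 6.9% of all genes called lower. FOXJ1 was called lower in this comparison but not in EZH2-/- relative to EZH2+/+ ESCs, and its part was not tested. These lists share the same libraries.

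Across the 12 libraries the genes whose log2(RPM + 0.1) ran most like that of each FOX gene were found among 15499 genes whose mean reached 1 RPM. The 12 points fall into 4 genotypes and share their libraries, so the correlations are a description without a p. For FOXC1 the 3 highest were GAS7, TWIST1 and ANKH (Pearson's r 0.94 to 0.96), and for FOXF2 TWIST1, PLBD1 and PXDC1 (0.97 to 0.98). TWIST1, a mesenchyme gene, was in both. FOXC2 ran most like PLK2, RIPK4 and LHX6 (0.96 to 0.97), FOXF1 like HAND1, H19 and HAPLN1 (0.95 to 0.96), and FOXD1 like PCSK1, GADD45A and SYTL5 (0.91 to 0.95). FOXL2 had IL23A, TAC1 and ITGB2 (0.95 to 0.96) and FOXQ1 had ITLN2, RP11-627G18.1 and GPR39 (0.96 to 0.97). For FOXJ1 the list was ARMCX1, RASA3 and GFOD1 (0.86 to 0.92). FOXE3, with few reads, had the lowest values, for RP11-557C18.3, EXOG and RNF185-AS1 (0.78 to 0.90). Among the 9 themselves, FOXC2 and FOXF2, on different chromosomes, had the highest correlation (r = 0.94), and those of FOXE3 with the others lay between -0.31 and 0.10.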

How the data were processed

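RNA-seq of SSEA4-sorted cells (12 libraries, 3 per genotype) and ChIP-seq (21 columns) were deposited as log2 values. Per the study's methods and the submitters' processing notes, the authors trimmed reads with Trim Galore 0.4.0, aligned RNA reads to GRCh38 with TopHat2 2.0.12 and ChIP reads with Bowtie2 2.2.5, counted RNA reads over genes without regard to strand and non-duplicated ChIP reads in windows around start sites in SeqMonk, and deposited log2 RPM (reads per 1000000 reads of the library). Values of genes without a read, stored as 0.9 of 1 read, were set to 0. All RNA values below 1000 reads gave whole reads within 0.01. Each ChIP mark has 1 column per genotype, so only RNA was tested. The steps of the values in each histone and input column are those of a log-scale mean of 2 libraries (1 for EZH2), whereas the study speaks of 3. This was not resolved, and reads per library and counting intervals assume 2.

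RNA was tested with limma 3.58.1 (R 4.3.3, eBayes with trend) on log2(RPM + 0.1) over genes with a mean of 0.1 RPM or more, all 12 libraries in 1 fit, with Benjamini-Hochberg adjustment at 0.05. The files hold log2 RPM and not counts, so that limma took the place of a count model, with voom on the recovered reads as an alternative. Libraries with the same number deviated together (18 pairs, correlation of deviations from the genotype mean 0.11 to 0.56, against a mean of -0.16 over the 36 other pairs, and each of the 12 libraries nearest to one of its own number), so a fit with the number as a block was run beside the fit without it, from which the reported calls come. This pairing comes from the data and not from the labels. The block fit is given where it changed a call of 1 of the 9 genes or moved a count of calls by over 1.5 times. Counting intervals of read ratios are exact 95% intervals and, with the floor of 3 reads, cover counting error only. Exon lengths are from GENCODE release 44 and promoter sequences from RefSeq on GRCh38.p14. With 3 libraries a side an exact permutation test cannot go below 0.1, and none was used.

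The 9 genes, gene lists and marker lists were chosen with earlier results of these data known. Named were the 9 genes, up to 3 called genes of each list with the largest fold change, genes within 100 kb, and the 3 genes most alike to each over the libraries. Called mesoderm genes that passed the filter only through EZH2-/- ESCs were also named.

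Changes in ChIP were taken as differences of log2 RPM with 1 as the limit, and a promoter counted as marked by H3K27me3 with more than 0.1 log2 RPM per kb of H3K27me3 and less of input in EZH2+/+ ESCs. For each gene name the window with the most H3K27me3 in EZH2+/+ ESCs was used. Alternatives covered the pseudocount, filter, scaling, block, voom and each library left out.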

Additional observations from a re-analysis of the deposited data

How the results depend on the processing

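Against EZH2-/-+EZH2 ESCs, 5 of the 9 genes were called higher in EZH2-/- ESCs. With log2(RPM + 0.01), without a filter or with limma voom on recovered reads 3 were called (FOXC1, FOXF2 and FOXJ1 with that pseudocount, FOXC1, FOXC2 and FOXF2 in the other cases), and with a filter at 1 RPM on the mean, which tests 3 of the 9, 1 was called. With the replicate block 8 were called, which added FOXD1, FOXL2 and FOXF1, and the block changed no other call of the 9. With log2(RPM + 1) or rescaling by the upper quartile 7 were called, which added FOXD1 and FOXL2. With single libraries left out 3 to 7 were called. Against EZH2+/+ ESCs, 7 were called higher (2 with the filter at 1 RPM, 6 without a filter, where FOXF1 was lost, and 6 to 7 with single libraries left out). EZH2-/+ against EZH2+/+ ESCs gave 0 calls throughout. The 2 genes lower in EZH2-/-+EZH2 than in EZH2+/+ ESCs became 1 (FOXJ1) with log2(RPM + 1), with the filter at 1 RPM, without a filter, after rescaling by the median ratio, with voom and with only the 6 libraries compared, and 1 to 2 with single libraries left out. The count of 4 genes with an H3K27ac change of 1 or above became 0 with log2(RPM + 1), 1 when centred on promoters without H3K27me3 and 8 after subtraction of input, where 5 of the 9 EZH2+/+ values were below input and set to 0.

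Some uncalled log2 fold changes turned direction, and the cause was not tested. In EZH2-/+ against EZH2+/+ ESCs, FOXF2 was at 0.0011 after rescaling by the median ratio, and with single libraries left out FOXF2 ranged from -0.10 to 0.094, FOXL2 from -0.68 to 0.16 and FOXJ1 from -0.52 to 0.048. In EZH2-/-+EZH2 against EZH2+/+ ESCs, FOXF1 was at -0.24 with log2(RPM + 0.01) and -0.089 with voom, and with single libraries left out FOXF1 ranged from -0.37 to 0.32, FOXD1 from -0.21 to 0.94 and FOXE3 from -0.65 to 0.068.

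In EZH2-/- against EZH2-/-+EZH2 ESCs, FOXC1 and FOXF2 were called higher under each alternative that tested them. Over all genes the number called there ranged from 288 to 1937, and against EZH2+/+ ESCs from 5163 to 9339. Levels of FOXF1, FOXF2 and FOXC2 outside EZH2-/- ESCs rest on few reads, mostly near or under the floor of 3 reads a library, so absence of their RNA cannot be read from these data.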
